A study of Homo sapiens with 8 samples.

Results

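The genes described here are 10 dual specificity phosphatases of the mitogen-activated protein kinases (MAPKs), namely DUSP1, DUSP2, DUSP4, DUSP5, DUSP6, DUSP7, DUSP8, DUSP9, DUSP10 and DUSP16. They were taken by name, and all 10 were found among the 19821 protein-coding genes annotated on the numbered chromosomes and X. The data are lists of chromatin immunoprecipitation (ChIP) sequencing peaks from neural progenitor cells, which had been induced from the human embryonic stem cell line H9. The stem cells had been infected with a lentivirus carrying the hairpin sh1 or sh4 against KDM2A, or with the control NC, and selected with puromycin before they were induced to neural progenitors. Dimethylation of lysine 36 on histone H3 (H3K36me2) was mapped in sh1, sh4 and NC cells, and the H3K36 demethylase KDM2A in NC cells only, in a study whose title names MAPK signalling in neurodevelopment. The sources used here do not say whether the infected cells were clones, and the lists measure no RNA, so neither the knockdown nor the progenitor identity could be checked in them.

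MAPK phosphatases switch off MAPKs by removing phosphate from the threonine and the tyrosine of the kinase activation loop. Nuclear enzymes of the family, DUSP1, DUSP2, DUSP4 and DUSP5, are products of genes that are induced within minutes by growth factors or stress. DUSP6, DUSP7 and DUSP9 are cytoplasmic and prefer the kinase ERK, and DUSP8, DUSP10 and DUSP16 prefer the stress kinases JNK and p38. DUSP6 is a well known target and feedback inhibitor of FGF signalling in neural tissue. KDM2A binds CpG-rich DNA that carries no methylation through a zinc finger and removes methyl groups from H3K36.

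The promoters of DUSP7, DUSP2 and DUSP10 are shown first, with their CpG dinucleotides marked. The reference promoter table (RefSeq, GRCh38.p14) gave 300 bases around each listed start, most of them upstream, for 8 of the 10 genes. DUSP7 had the only listed promoter that a KDM2A peak overlapped, and that peak was weak, with a false discovery rate of 0.655. DUSP2 had a CpG-rich promoter with no peak within 2 kb, and DUSP10 had a pair of listed starts that differed in CpG content. The share of all promoter windows that a KDM2A peak overlapped was not computed. A relation between overlap and CpG content was not tested. Capitals mark each CG, read 5′ to 3′ on the gene's strand, which is the minus strand for all 4 sequences.
DUSP7 (chr3:52056522-52056821): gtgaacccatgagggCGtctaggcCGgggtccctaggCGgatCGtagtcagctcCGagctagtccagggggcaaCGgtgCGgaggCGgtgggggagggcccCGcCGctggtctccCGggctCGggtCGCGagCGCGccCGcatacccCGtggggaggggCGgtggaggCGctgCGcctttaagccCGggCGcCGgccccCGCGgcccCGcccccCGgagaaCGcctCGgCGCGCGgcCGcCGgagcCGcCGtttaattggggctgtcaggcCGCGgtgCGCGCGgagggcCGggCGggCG
DUSP2 (chr2:96145391-96145690): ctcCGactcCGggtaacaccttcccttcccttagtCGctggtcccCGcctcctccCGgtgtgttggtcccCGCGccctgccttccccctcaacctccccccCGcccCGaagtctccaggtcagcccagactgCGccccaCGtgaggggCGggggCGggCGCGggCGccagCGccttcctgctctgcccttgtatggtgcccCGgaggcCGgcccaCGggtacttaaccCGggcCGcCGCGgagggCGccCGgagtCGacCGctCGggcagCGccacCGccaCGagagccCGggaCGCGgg
DUSP10 outer start (chr1:221742040-221742339): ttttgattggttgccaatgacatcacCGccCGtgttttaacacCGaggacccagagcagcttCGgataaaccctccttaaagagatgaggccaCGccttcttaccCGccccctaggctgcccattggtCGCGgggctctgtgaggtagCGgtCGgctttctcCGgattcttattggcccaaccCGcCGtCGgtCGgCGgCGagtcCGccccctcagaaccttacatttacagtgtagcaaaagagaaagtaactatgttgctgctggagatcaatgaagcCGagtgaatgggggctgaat
DUSP10 inner start (chr1:221736851-221737150): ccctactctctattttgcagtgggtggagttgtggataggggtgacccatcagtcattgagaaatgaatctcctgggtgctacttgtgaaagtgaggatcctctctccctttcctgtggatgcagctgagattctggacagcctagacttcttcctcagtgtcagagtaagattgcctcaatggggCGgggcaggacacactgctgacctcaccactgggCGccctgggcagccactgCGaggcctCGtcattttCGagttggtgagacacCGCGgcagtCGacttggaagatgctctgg
The DUSP7 window held 45 CG dinucleotides, a number reached by 3.48% of all 35116 promoter windows of this length, whose median was 14. DUSP8 followed with 44, DUSP1 with 36 and DUSP2 with 35, and no KDM2A peak overlapped the windows of these genes. The listed starts of DUSP9 had 31 and 29, that of DUSP16 had 29, and DUSP6 and the outer start of DUSP10 had 19 each. The inner start of DUSP10 had 8 and was the 1 member window below the median of all promoters.

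KDM2A in NC cells lay near most of these genes, but no peak at an end or in a body of a member passed a false discovery rate (FDR) of 0.05. An end window reached 2 kb to each side of a gene's lower or upper bound, and 8 of the 10 genes had a peak that overlapped one, against 84.0% of all protein-coding genes. DUSP2 and DUSP10 had none. With the FDR limit the count was 0 of 10, against 5.55% of all genes at gene ends, and 0 of 10 in gene bodies, against 20.1%. Fold is the authors' ratio of the KDM2A immunoprecipitate to background at a peak, and pileup is the number of stacked fragments. The 44 peaks at the members' ends or in their bodies had folds from 1.73 to 3.38 and pileups from 5 to 12, beside medians of 2.33 for fold and 8 for pileup over all 504724 peaks. Their FDR lay between 0.0573 and 0.839. No replicate exists for any library, so every value below describes 1 library.

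Where a start was listed, 7 of 8 members had a KDM2A peak within 2 kb of it, against 68.9% of 15795 genes. Among the inducible nuclear enzymes, DUSP1 (chr5:172768096-172771195), the phosphatase of ERK, JNK and p38 that growth factors and stress induce, had 3 peaks. One lay 647 bp upstream of the start with a fold of 1.88 and an FDR of 0.63, and the others lay 912 and 1373 bp inside the gene with folds of 2.52 and 2.48. DUSP2 (chr2:96143169-96145440), an enzyme first described in activated lymphocytes, had no peak in its body or end windows. Its nearest peak with an FDR under 0.05 lay 2481 bp upstream of its start, just beyond the window, with a fold of 3.73 and an FDR of 0.011. DUSP4 (chr8:29333064-29350684), an inducible enzyme closely related to DUSP1, had 3 peaks in its end windows with folds of 2.61, 1.73 and 2.24, and 5 in its body with folds up to 2.33. DUSP5 (chr10:110497907-110511533), a nuclear phosphatase selective for ERK, had 1 peak in its body with a fold of 2.63, and 1 that lay 1134 bp beyond its upper bound with a fold of 3.19 and an FDR of 0.102. The divergent transcript DUSP5-DT lies below the lower bound of DUSP5, which places the gene's start there, so the stronger of its peaks was at the far end.

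Among the cytoplasmic ERK phosphatases, DUSP7 (chr3:52048919-52056571) had the peak nearest to a placed start. That peak, chr3:52056674-52056896, lay 103 bp upstream of the start and covered 148 bp of the 300-base promoter printed above. Its fold of 1.94 and pileup of 7 were below the medians of the list, and its FDR was 0.655. DUSP6 (chr12:89347235-89352501) had no peak in its body, 1 that lay 1379 bp upstream of its start with a fold of 2.29, and 1 that lay 1342 bp beyond its other end with a fold of 2.55. The upstream peak also lies inside the annotated readthrough gene POC1B-DUSP6, which overlaps DUSP6. DUSP9 (chrX:153642441-153651326), an ERK phosphatase with known roles in placenta and embryonic stem cells, had 5 end peaks, the highest number among the 10 genes. At its outer start 1 peak lay 1940 bp upstream and 1 lay 290 bp inside the gene, each with a fold of 1.81 and an FDR of 0.839. A peak 1686 bp before its inner start had a fold of 3.08, and peaks near its far end had folds of 2.42, 2.96 and 3.06.

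Among the phosphatases of JNK and p38, DUSP16 (chr12:12473282-12562863) had the lowest FDR at a start. The peak lay 664 bp inside the gene, at chr12:12562047-12562199, with a fold of 3.21, a pileup of 11 and an FDR of 0.0793. A peak inside the same gene, at chr12:12502703-12502963, had the highest fold of the 44 peaks at ends or in bodies, 3.38, with an FDR of 0.0573. DUSP8 (chr11:1554051-1572848), which is expressed mainly in brain and heart, had a peak 1959 bp upstream of its listed start with a fold of 3.30 and an FDR of 0.0816. That peak lies in KRTAP5-AS1, a transcript that overlaps the upper bound of DUSP8. DUSP10 (chr1:221701424-221742089), which acts on JNK and p38, had no end peak. It had 8 peaks in its body with folds from 1.82 to 3.15, and the one nearest to a start lay 1637 bp inside its inner start with a fold of 2.03.

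**Figure D1:**
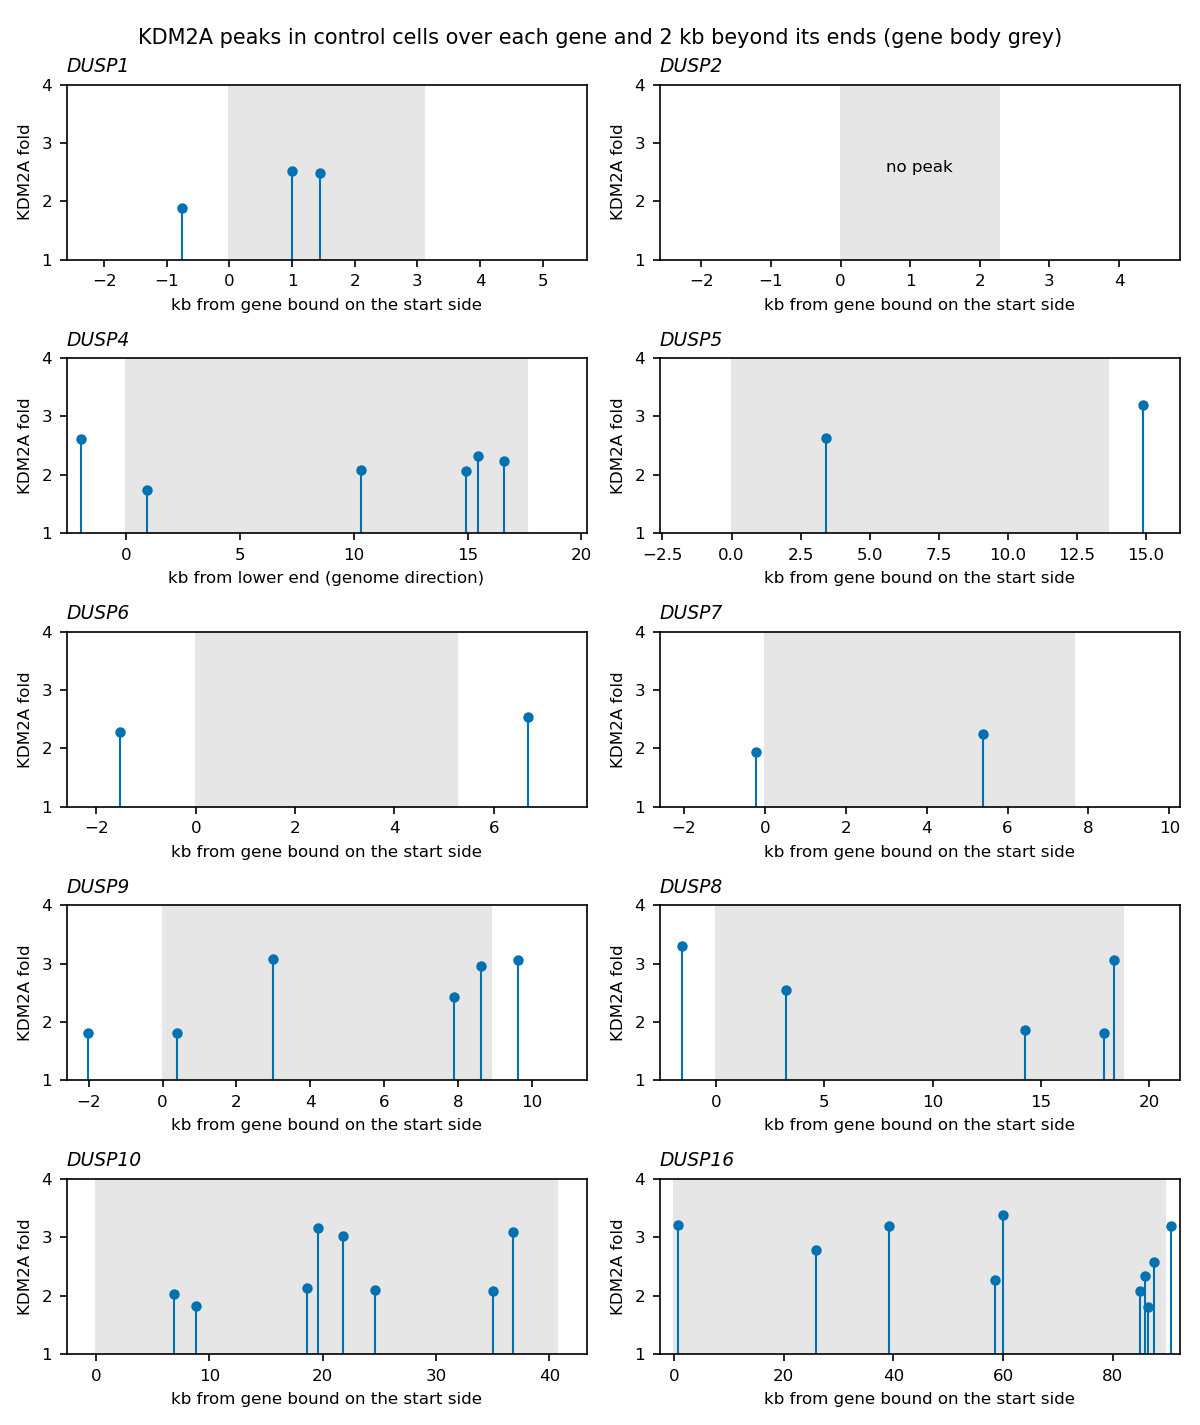
KDM2A peaks of NC cells over each MAPK phosphatase gene (grey) and 2 kb beyond its bounds. The horizontal axis is distance in kb from the gene bound on the start side (for DUSP4 from its lower bound; the listed start of DUSP8 lies inside its bound), the vertical axis is the authors' fold, and each stem is 1 peak. The highest stem is the 3.38 in DUSP16, and DUSP2 has no peak.

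By density, the members' bodies held KDM2A peaks at about the rate of all genes. Peak midpoints numbered 34 in 207 kb of member gene bodies, or 16.4 per 100 kb (exact Poisson interval 11.3 to 22.9, counting error only), against 17.4 per 100 kb over all protein-coding gene bodies. At least 1 midpoint lay in the body of 8 of the 10 genes, against 89.4% of all genes. DUSP2 and DUSP6, with lengths of 2272 and 5267 bp, had none.

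The KDM2A peaks with an FDR under 0.05 lay in the flanks. Over each gene and 50 kb to each side there were 272 peaks, from 20 at DUSP6 to 41 at DUSP9, and 12 of them passed the limit. The 272 peaks amount to 22.5 per 100 kb (exact Poisson interval 19.9 to 25.4, counting error only), against 19.5 per 100 kb over all gene windows. The lower limit of this interval lies close to the value of all gene windows, and the interval takes peaks as independent. A difference in density was not tested. The 12 are 4.41% (exact interval 2.30 to 7.58), against 3.13% of all peaks. At least 1 such peak was found for 7 of the 10 genes, against 56.7% of all genes. DUSP2 had 4 of them, with folds of 3.32, 3.48, 3.73 and 4.0, at 44.8 and 25.9 kb beyond its far end and at 2.48 and 22.5 kb upstream. DUSP8 had 2, with a fold of 3.37 each, and DUSP9 had 2, with folds of 3.57 and 3.42, the first inside CCNQ, a cyclin gene. DUSP1, DUSP5 and DUSP7 had 1 each, with folds of 3.63, 3.44 and 3.75. The strongest lay 17.9 kb upstream of DUSP16, at chr12:12580780-12581033 in the long noncoding transcript LOC107984486, with a fold of 5.29, a pileup of 18 and an FDR of 2.87e-06. DUSP4, DUSP6 and DUSP10 had none within 50 kb.

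H3K36me2 regions over these genes were few, and in NC cells none touched a gene body. An H3K36me2 region is a stretch that the authors' caller found above input, and its fold is a ratio of the immunoprecipitate (IP) to scaled input. Region counts over gene bodies were 1 of 10 genes in sh1 cells, 2 of 10 in sh4 cells and 0 of 10 in NC cells, against 16.2%, 15.4% and 20.0% of all genes in the same libraries. Over the gene and 50 kb flanks the count was 4 of 10 genes in each of the libraries, against 31.0% of all genes in sh1, 28.7% in sh4 and 41.7% in NC. No body held a region in any library for 8 of 10 genes (70.6% of all genes), and none held one in every library (7.52%). Over gene and flanks, DUSP6 and DUSP16, 2 of 10, had a region in every library (15.7%). The genes with regions differed between libraries. Those of sh1 were DUSP1, DUSP5, DUSP6 and DUSP16, those of sh4 were DUSP5, DUSP6, DUSP10 and DUSP16, and those of NC were DUSP4, DUSP6, DUSP10 and DUSP16. No region of any library lay within 2 kb of a start of the 9 genes whose start could be placed. The share of all genes with a region that near to a start was not computed. This count is therefore not read as particular to the members. Over all genes with their 50 kb flanks, regions covered 2.24% of the length in sh1, 2.42% in sh4 and 2.83% in NC. The members are short, with a median length of 11257 bp, against 24482 bp for all protein-coding genes.

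**Figure D2:**
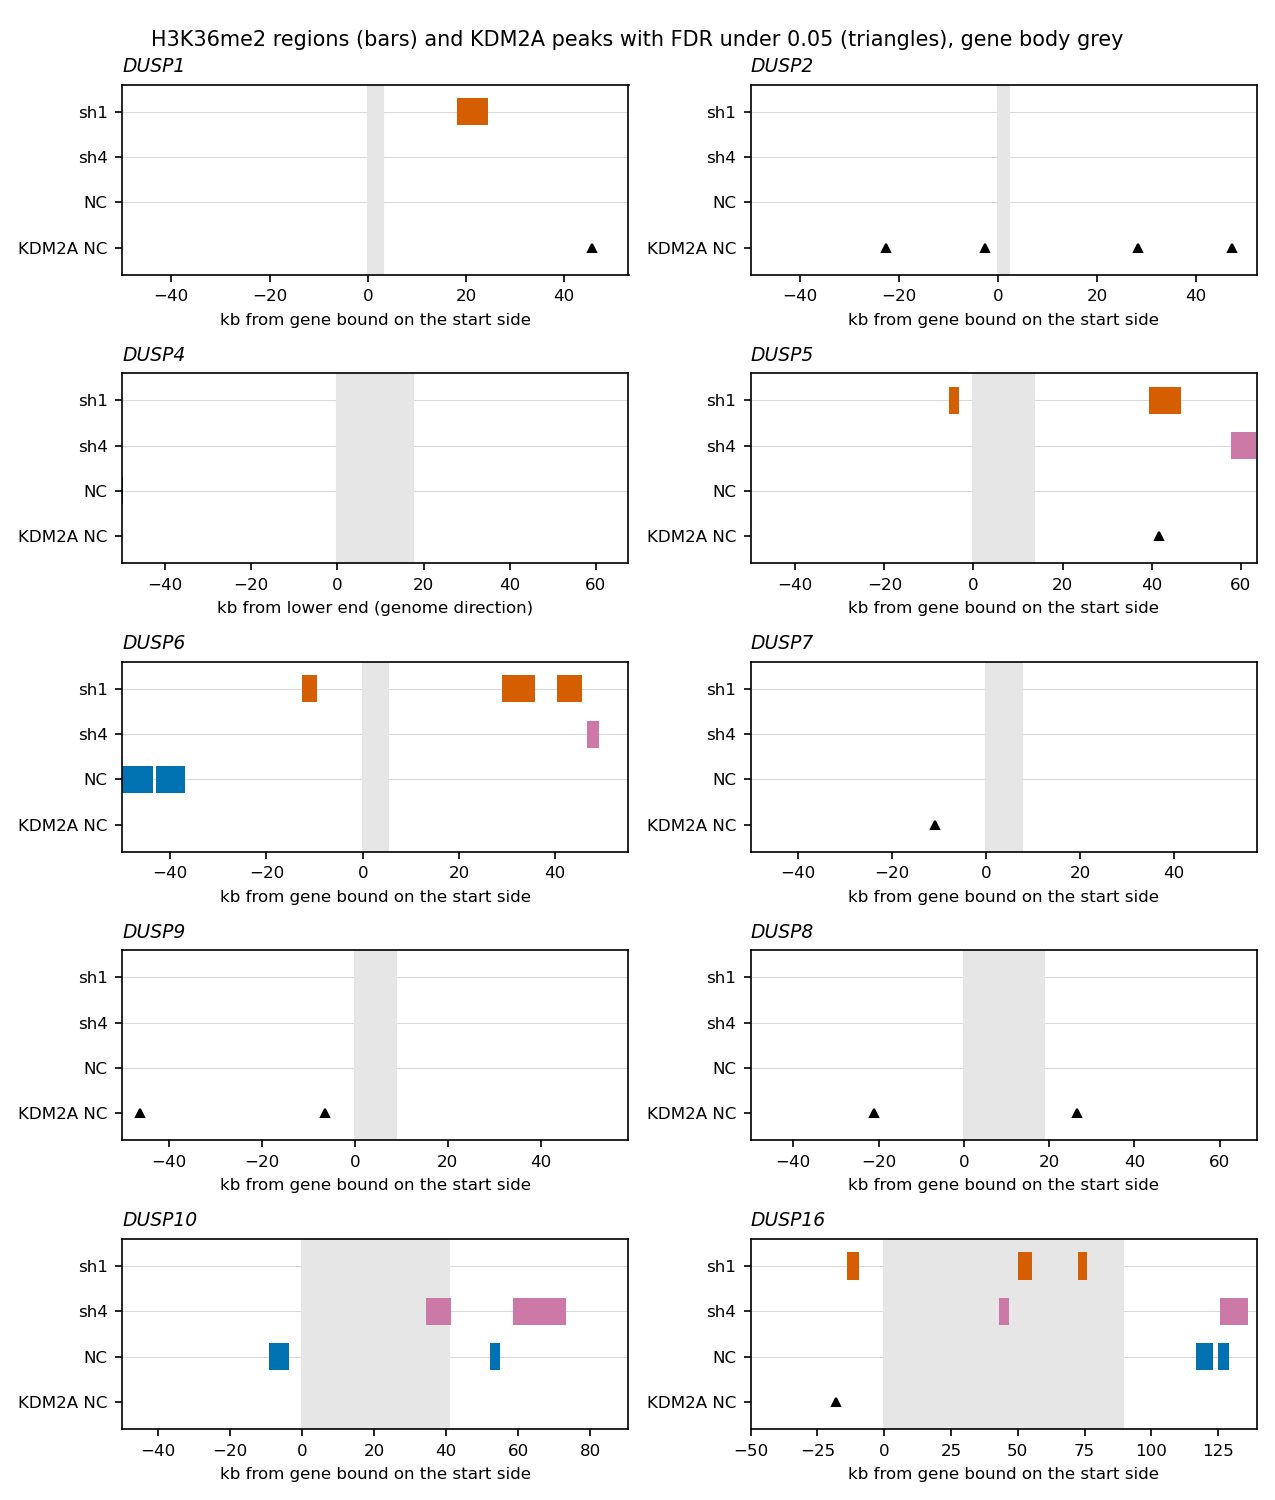
H3K36me2 regions of sh1, sh4 and NC cells (bars) over each MAPK phosphatase gene (grey) and 50 kb to each side, with KDM2A peaks of NC cells that had an FDR under 0.05 (triangles). The horizontal axis is distance in kb from the gene bound on the start side (for DUSP4 from its lower bound), and bars are cut at the window's edge. DUSP2, DUSP7, DUSP9 and DUSP8 have no region, the NC region of DUSP4 reaches only 0.137 kb into its window and is hardly visible, and bars of different libraries seldom stand above each other.

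DUSP16 was the 1 member with H3K36me2 over its body in both hairpin libraries. Covered body length was 8.40 kb in sh1 cells and 3.6 kb in sh4 cells, against 0 kb in NC cells, or 9.38% and 4.02% of the gene against 0%. The sh1 regions were chr12:12486801-12490200, with a fold of 1.63 (exact counting interval 1.2 to 2.22), and chr12:12507601-12512600, with 1.48 (1.18 to 1.85). The sh4 region was chr12:12516201-12519800, with a fold of 1.54 (1.19 to 2.00). These regions did not overlap: each hairpin's calls lay at a different place in the gene. Higher body coverage in both hairpins than in NC was thus found for 1 of 10 members, against 4.69% of all genes, and lower coverage in both for 0 of 10, against 12.6%. With no region in NC, a member's body coverage could not have been lower in a hairpin. DUSP16 is the longest member, at 89.6 kb, and these shares cover genes of all lengths.

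Outside its body, DUSP16 had an sh1 region 9.54 kb upstream, with a fold of 1.64, that overlapped the same LOC107984486 as the strongest KDM2A flank peak. Downstream, in BORCS5, a gene of a lysosome-positioning complex, sh4 cells had chr12:12426601-12437200 with a fold of 1.31 (1.12 to 1.53), and NC cells had chr12:12433601-12438000 with a fold of 1.72 (1.31 to 2.26). These overlapped by 3.6 kb, which was all the H3K36me2 that any pair of libraries shared in the windows of the 10 genes. NC cells had a further BORCS5 region with a fold of 1.41. Over gene and flanks DUSP16 was covered over 12.8 kb in sh1 cells and 14.2 kb in sh4 cells, against 11.0 kb in NC cells.

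DUSP10 had H3K36me2 at its far end in sh4 cells, and in neither sh1 nor NC cells. The region chr1:221700601-221707600 covered 6.18 kb, or 15.2% of the gene, with a fold of 1.32 (1.11 to 1.58) from 305 IP and 228 input reads. A wider sh4 region lay 18.0 kb downstream, at chr1:221668801-221683400, with a fold of 1.68 (1.47 to 1.93) and an FDR of 1.07e-28, the lowest in any member window. NC cells had instead a region 11.4 kb downstream with a fold of 1.64 (1.2 to 2.24) and one 3.71 kb upstream with a fold of 1.43 (1.14 to 1.78). Over gene and flanks the covered length was 0 kb in sh1 cells and 21.6 kb in sh4 cells, against 8.40 kb in NC cells. DUSP10 lies on chromosome 1 beyond 140 Mb, where H3K36me2 regions covered 3.13 Mb in sh1 and 15.5 Mb in sh4, against 3.74 Mb in NC. The part of that stretch-wide excess in the sh4 regions at DUSP10 was not tested.

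DUSP6, the FGF feedback phosphatase, had regions in all 3 libraries, each at another place and none in the gene. In sh1 cells they lay 35.2 and 23.6 kb downstream and 9.5 kb upstream, with folds of 1.72 (1.36 to 2.17), 1.57 (1.26 to 1.95) and 1.94 (1.45 to 2.61). In sh4 cells one lay 41.4 kb downstream with a fold of 2.28 (1.58 to 3.34), the highest of all member regions. In NC cells they lay 36.9 and 43.7 kb upstream, with folds of 1.5 (1.21 to 1.85) and 1.47 (1.27 to 1.70). The upstream regions of both sh1 and NC overlapped POC1B-DUSP6, and the NC region 43.7 kb upstream also overlapped POC1B. Covered length was 15.2 kb in sh1 cells and 2.40 kb in sh4 cells, against 12.3 kb in NC cells, longer in sh1 and shorter in sh4 than in NC.

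At DUSP5 both hairpins had regions and NC cells had none. Covered length was 9.20 kb in sh1 cells and 5.60 kb in sh4 cells, against 0 kb in NC cells. The nearest was an sh1 region 3.31 kb upstream in DUSP5-DT, with a fold of 1.76 (1.25 to 2.50). A second sh1 region, 25.9 kb downstream with a fold of 1.37, contained the KDM2A peak chr10:110539427-110539688 that had a fold of 3.44 and an FDR of 0.0355. The sh4 region lay 44.3 kb downstream with a fold of 1.40. DUSP1 had 1 region, in sh1 cells, 15.1 kb downstream with a fold of 1.37 (1.13 to 1.67). DUSP4 had 1 region, in NC cells, with a fold of 1.70 (1.30 to 2.24), and only 0.137 kb of it reached into the window.

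**Figure D3:**
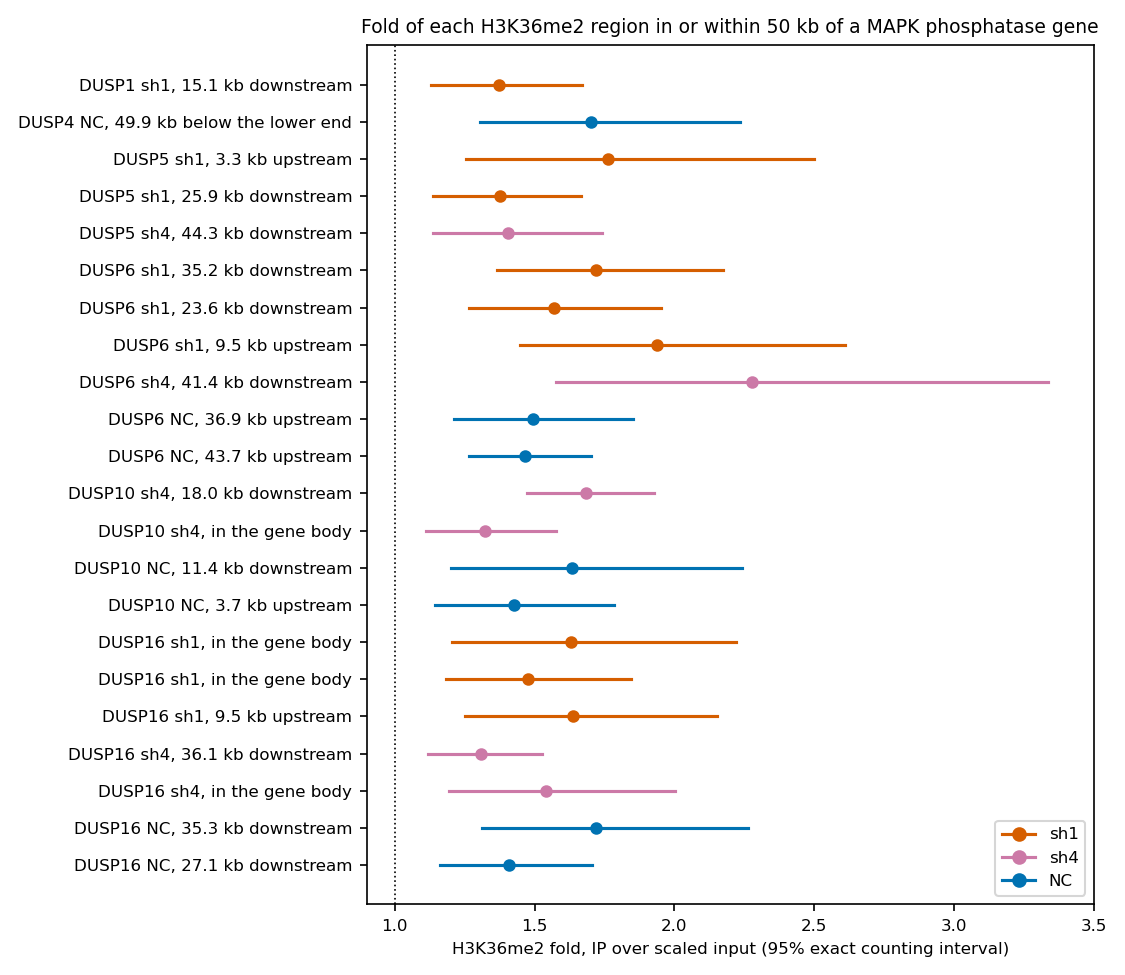
Fold of each H3K36me2 region in or within 50 kb of a MAPK phosphatase gene, with its exact 95% counting interval, in sh1, sh4 and NC cells. Labels give the distance from the gene, and the dotted line marks a fold of 1. The folds run from 1.31 to 2.28. Every interval lies above 1, which reflects the selection of regions called above input and is no separate result.

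Summed over the 10 windows, the regions numbered 9 in sh1 cells and 6 in sh4 cells, against 7 in NC cells. As a ratio to NC, the number was 1.29 for sh1 (exact interval 0.426 to 4.06) and 0.857 for sh4 (0.238 to 2.98). These intervals cover counting error only, and both include a ratio of 1. The covered lengths that follow rest on these few regions and have no interval. Covered length was 43.4 kb in sh1 and 43.8 kb in sh4, against 31.8 kb in NC, which is 1.36 times NC for sh1 and 1.38 times NC for sh4. Over the windows of all protein-coding genes the ratios were 0.793 and 0.858. Without DUSP10 the members' lengths were 43.4 kb in sh1 and 22.2 kb in sh4, against 23.4 kb in NC, and the ratios were 1.85 and 0.947. The sh4 ratio of covered length therefore turned on DUSP10. All of these ratios share the 1 NC library. Coverage of gene and flanks was higher in both hairpins than in NC for 2 of 10 members, DUSP5 and DUSP16 (8.54% of all genes), and lower in both for 1, DUSP4 (26.2%). Against NC taken singly, sh1 was higher for 4 members (18.4% of all genes) and lower for 2 (31.4%), and sh4 was higher for 3 (18.1%) and lower for 2 (31.4%).

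The median region of each whole list held 151 IP and 89 input reads in sh1, 156 and 92 in sh4, and 162 and 99 in NC. The median fold of the regions near members was 1.63 in sh1 and 1.47 in sh4, against 1.5 in NC, beside 1.65, 1.65 and 1.59 for all regions of the same libraries.

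The 4 genes with no H3K36me2 region in any library, DUSP2, DUSP7, DUSP8 and DUSP9, were those in the most gene-dense surroundings. Within 1 Mb centred on the gene they had 17, 35, 22 and 31 protein-coding genes, and the other members had 1 at DUSP10 to 13 at DUSP16. These counts include the gene itself. The median over all genes was 13. Of all genes with a count of more than 13 in that stretch, 69.1% had no region in their window in any library. Of those with at most 13 it was 23.0%, against 4 of 4 and 0 of 6 members. Over all genes together the share with no region was 45.6%. Having no region in the window places the nearest region of these 4 genes beyond 50 kb. The distance was 2373 kb in sh1 and 2303 kb in sh4, against 1205 kb in NC, for DUSP8. For DUSP9 it was 2091 kb in sh1 and 1079 kb in sh4, against 110 kb in NC. For DUSP2 it was 226 kb in sh1 and 1478 kb in sh4, against 276 kb in NC, and for DUSP7 534 kb in sh1 and 102 kb in sh4, against 356 kb in NC. The median distance over the 10 members was 112 kb in sh1 and 77.8 kb in sh4, against 110 kb in NC, and over all genes 182 kb in sh1 and 213 kb in sh4, against 80.6 kb in NC.

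**Figure D4:**
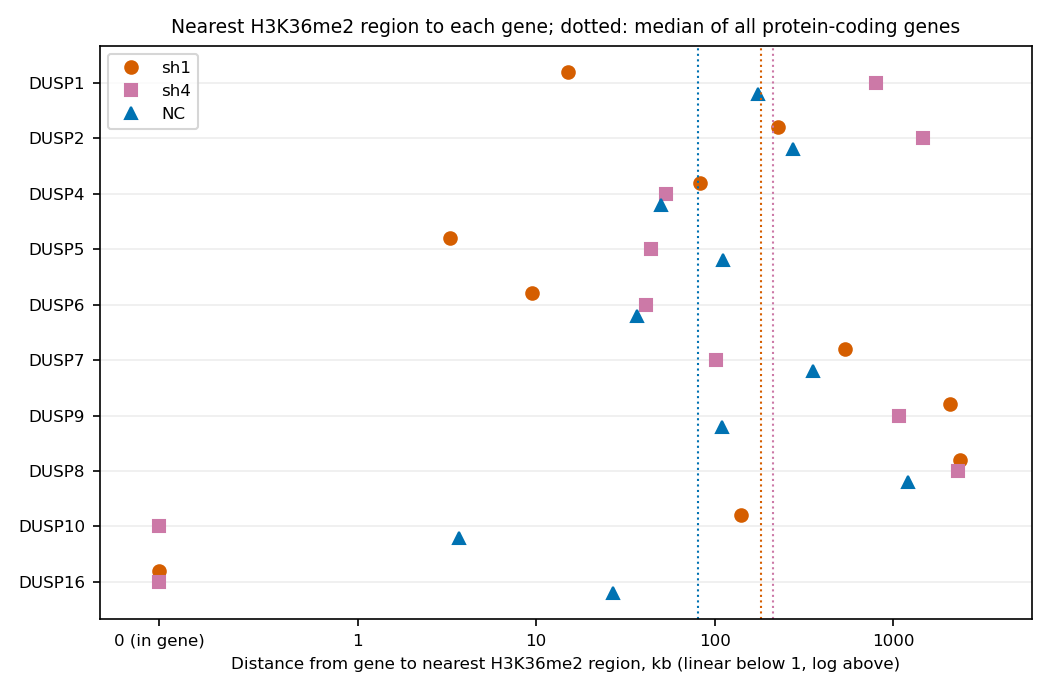
Distance in kb from each MAPK phosphatase gene to the nearest H3K36me2 region of sh1 (circles), sh4 (squares) and NC cells (triangles), on an axis that is linear below 1 kb and logarithmic above. Dotted lines give the medians of all protein-coding genes. DUSP8 lies farthest out, at 1205 kb or more in all 3 libraries, and DUSP16 and DUSP10 have regions inside the gene.

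KDM2A peaks of NC cells and H3K36me2 regions overlapped in the windows at about the rate of the windows themselves. Inside the regions lay 11 peak midpoints for sh1 and 9 for sh4, against 7 for NC. These are 25.3 per 100 kb (12.7 to 45.4) and 20.5 (9.40 to 39.0), against 22.0 (8.84 to 45.3) in NC, beside 22.5 per 100 kb over the whole windows. The DUSP5 peak named above was the 1 of these with an FDR under 0.05.

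Other genes of the pathway were described from 3 lists, beside the shares of all genes given above, 84.0% with a KDM2A peak at an end and 5.55% with one under the FDR limit. Of the 10 MAPKs, the kinases that these phosphatases act on, 8 had a KDM2A peak at an end and 1 had one with an FDR under 0.05, the p38 gene MAPK14 (fold 3.98, FDR 0.00204). H3K36me2 lay over the body of 2 MAPKs in sh1 and 2 in sh4, against 3 in NC, beside 16.2%, 15.4% and 20.0% of all genes. Over gene and flanks, 2 MAPKs had a region in sh1 and 3 in sh4, against 6 in NC, with coverage lower in both hairpins for 3 (26.2% of all genes) and higher in both for 1 (8.54%). MAPK10, a JNK gene of neurons, was covered over 9.90% in sh1 and 10.9% in sh4, against 7.37% in NC. Of the 15 genes listed as atypical dual specificity phosphatases, 13 had a KDM2A peak at an end and 1 with the FDR limit, DUSP26 (fold 4.06, FDR 0.00626). Of the 15 genes that ERK activity induces, 10 had a peak and 2 with the limit, EGR3 (fold 3.63, FDR 0.0302) and JUNB (fold 3.37, FDR 0.0454). Over gene and flanks, 3 of 15 atypical phosphatases had an H3K36me2 region in sh1 and 4 in sh4, against 3 in NC. For the 15 ERK response genes the counts were 4 in sh1 and 5 in sh4, against 3 in NC. The shares of all genes were 31.0% in sh1 and 28.7% in sh4, against 41.7% in NC. Coverage was lower in both hairpins for 2 atypical phosphatases and 1 ERK response gene (26.2% of all genes). It was higher in both for 2 of each list (8.54%). The median covered length of gene and flanks was 0 kb in sh1 and 0 kb in sh4, against 2.4 kb in NC, over the MAPKs, and 0 kb for each library over the atypical phosphatases, the ERK response genes and all protein-coding genes.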

How the data were processed

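Tools named in the submitters' processing notes are SICER, MACS2 and Bowtie 1.1.2, without roles, and the builds are GRCh38 and hg38. Each deposited list comes from 1 IP library. The deposited fold is a ratio of IP to background, and the deposited p-value and FDR come from the authors' peak caller. The deposited H3K36me2 score follows the log2 of the fold and was not used. The deposited KDM2A pileup is a signal, not normalized as far as the list shows. H3K36me2 regions lie on a 200 bp grid with starts counted from 0 and were converted to positions from 1.

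Gene bounds came from RefSeq (GRCh38.p14), which gives no exons, so exon or intron is not stated. Genes on alternate sequences were left out. Starts came from the promoter table, and for DUSP5 from its divergent transcript. The IP and input counts of each H3K36me2 region were recovered from its fold and Poisson p-value, and 100% came out whole in each library (within 0.001 for IP and 0.01 for input). Regions with p below 1e-250, 3 in sh1, 6 in sh4 and 5 in NC, were left out of this step. Intervals are exact (Clopper-Pearson or Poisson) at 95% and cover counting error only. For KDM2A no library depth is known. Overlaps of 1 bp counted, and medians and counts used Python 3.11.15, numpy 2.4.6, pandas 2.3.3 and scipy 1.17.1. The code was tested on simulated data.

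All members are named. From each list of related genes, up to 3 with the highest KDM2A fold and an FDR under 0.05 at an end are named, and MAPK10 was added after its values were seen. Members, lists and the density comparison were chosen with earlier results of these data known. With 1 library per group, no test between groups was made. The 4 input libraries entered only through the folds and recovered counts.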

Additional observations from a re-analysis of the deposited data

How the results depend on the processing

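Of 48 values of comparisons recomputed under other settings, 28 stayed within 1.5 times the reported value (peak density within its counting interval), 19 moved further and 1 turned round. Of 170 values of single genes, 56 moved and 0 turned round. End peaks of DUSP5 and DUSP6 fell to 0 with windows of 1 kb, and DUSP2 and DUSP10 had 2 each with windows of 5 kb. The KDM2A counts depended on the limit. With the FDR limit, 0 members had a peak at an end and 0 at a start, with the 10% of peaks of highest fold 4 and 3, and with windows of 1 kb 4 had one at a start. Bodies held 3.37 peaks per 100 kb of highest fold. For H3K36me2, flanks of 20 kb left 2 members with a region in sh4 and 1 in NC. Regions above the median fold of NC left 2 in sh4, and 0 of them over a body. Regions with an FDR under 1e-10 left 1 in sh1, 2 in sh4 and 1 in NC, and 0 over a body in sh1 or sh4. Covered length relative to NC was 2.75 for sh1 with flanks of 20 kb. Above the median fold of NC it was 2.48 for sh1 and 2.32 for sh4, and 2.70 for sh4 under an FDR of 1e-10. In both of these settings the sh4 length came only from a 14.6 kb region near DUSP10 and a 2.4 kb region near DUSP6. For sh1 the ratio was 1.30 under an FDR of 1e-10. With flanks of 100 kb it was 1.33 for sh1 and 1.32 for sh4. Divided by the same ratio over the whole libraries it was 1.47 for sh1 and 1.25 for sh4. Without DUSP10 the sh4 ratio turned to 0.947. Of these settings, a share of all genes was computed only for the KDM2A FDR limit at gene ends, 5.55%. The other recomputed counts and the density of highest-fold peaks cover members only and have no background beside them. The causes of these changes were not tested.

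The lists hold called regions only, so a gene without one has no measured level. No paired analysis was possible because each group holds 1 library.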
